A study of Mus musculus with 10 samples.

Results

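A bidirectional promoter lies between the start sites of a pair of genes that are read away from each other. Here such promoters were taken as pairs of autosomal protein-coding genes of the GENCODE M21 annotation (mouse build GRCm38, called mm10) that lie on opposite strands, head to head, with their nearest transcription start sites (TSSs) at most 1000 bp apart. The rule found 1105 pairs, which held 2186 of 20696 autosomal coding genes (10.6%). They made up 1081 promoters, because 47 pairs shared a gene with another pair. The promoters were examined in microglia, the resident macrophages of the brain, isolated from brains of wild-type C57/Bl6 mice as whole cells sorted for CD45+, CD11b+ and CX3CR1+. The labels call the genotype wild type at the Sall1 enhancer, and give neither age nor which animals made up a library. H3K4me3 ChIP-seq, which reads the trimethyl mark on histone H3 lysine 4 at promoters, had 2 libraries, each with its own peak list. PLAC-seq, which joins H3K4me3 immunoprecipitation with proximity ligation and so lists which 5-kb bins of the genome touched an H3K4me3-bearing bin, had 2 libraries combined in a single list of 26689 interactions. The spread between the ChIP libraries may therefore be technical, and the interactions carry no replicate error. Transcription was not measured, so whether either gene of a pair was transcribed is not shown by these values.

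In mammals a start site is typically preceded by a nucleosome-depleted stretch of DNA, and trimethylated H3K4 sits on the nucleosomes that flank it, above all on those just inside the transcribed gene. CpG islands, stretches rich in unmethylated CpG dinucleotides, recruit the enzymes that place the mark. Head-to-head pairs share a single such stretch between genes, and many of the pairs known from mammals join housekeeping genes of DNA repair, mitochondria and protein synthesis.

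The DNA that separates the genes is short enough to print. The stretches run from 25 bases outside the TSS of the minus-strand gene, on the left, to 25 bases outside that of the plus-strand gene, on the right, on the plus strand of GRCm38 as given by RefSeq. The minus-strand gene is named first in every pair. Capitals mark exact matches on either strand to the letters GGGCGG of the GC box, CCAAT of the box named after them, CCGGAAG of ETS factors, GCATGCGC of NRF1, AAGATGGCG of YY1, TGACGT of cyclic AMP response elements, the palindrome-like TCTCGCGAG, TATAAA of the TATA box, GAGGAAGT of PU.1 and CACGTG of the E-box. The first 5 pairs are shown as long-known divergent pairs, Dido1/Gid8 and Serpinb6a/Ripk1 as pairs with very tall H3K4me3 peaks, Zfp277/Dock4 and Tctn3/Entpd1 as pairs with many interactions, and Col4a4/Col4a3 as a known pair without the mark.
Hspd1/Hspe1 (chr1:55087999-55088157): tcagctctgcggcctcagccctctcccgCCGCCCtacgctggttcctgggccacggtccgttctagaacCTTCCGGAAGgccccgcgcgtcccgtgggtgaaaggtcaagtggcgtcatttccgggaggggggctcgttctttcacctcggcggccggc
Sdhd/Timm8b (chr9:50603787-50603935): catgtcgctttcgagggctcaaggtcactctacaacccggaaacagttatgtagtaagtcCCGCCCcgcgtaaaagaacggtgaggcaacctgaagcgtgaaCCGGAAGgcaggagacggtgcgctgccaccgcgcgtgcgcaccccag
Mrps12/Sars2 (chr7:28741795-28742027): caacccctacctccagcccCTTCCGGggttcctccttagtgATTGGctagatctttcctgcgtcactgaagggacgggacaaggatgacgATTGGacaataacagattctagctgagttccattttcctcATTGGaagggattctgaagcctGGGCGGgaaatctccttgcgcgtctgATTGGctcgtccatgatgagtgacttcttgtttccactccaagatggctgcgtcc
Ranbp1/Trmt2a (chr16:18248707-18248908): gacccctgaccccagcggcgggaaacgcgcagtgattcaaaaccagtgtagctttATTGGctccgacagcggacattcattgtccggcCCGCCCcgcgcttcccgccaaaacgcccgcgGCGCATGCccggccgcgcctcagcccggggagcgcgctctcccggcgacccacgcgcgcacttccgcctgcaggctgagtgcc
Toe1/Mutyh (chr4:116807615-116807748): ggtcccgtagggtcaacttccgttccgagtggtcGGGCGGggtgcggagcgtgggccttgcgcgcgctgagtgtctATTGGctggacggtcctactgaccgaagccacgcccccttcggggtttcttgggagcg
Dido1/Gid8 (chr2:180709974-180710142): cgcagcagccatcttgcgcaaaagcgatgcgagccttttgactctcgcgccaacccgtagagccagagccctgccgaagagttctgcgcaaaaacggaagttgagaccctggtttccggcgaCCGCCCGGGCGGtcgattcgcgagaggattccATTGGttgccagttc
Serpinb6a/Ripk1 (chr13:34002769-34002899): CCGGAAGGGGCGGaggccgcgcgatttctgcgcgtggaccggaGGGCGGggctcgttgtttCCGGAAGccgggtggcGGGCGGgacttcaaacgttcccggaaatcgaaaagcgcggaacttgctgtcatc
Zfp277/Dock4 (chr12:40445877-40445977): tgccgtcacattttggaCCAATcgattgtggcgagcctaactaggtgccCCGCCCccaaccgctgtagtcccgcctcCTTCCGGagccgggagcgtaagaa
Tctn3/Entpd1 (chr19:40612208-40612422): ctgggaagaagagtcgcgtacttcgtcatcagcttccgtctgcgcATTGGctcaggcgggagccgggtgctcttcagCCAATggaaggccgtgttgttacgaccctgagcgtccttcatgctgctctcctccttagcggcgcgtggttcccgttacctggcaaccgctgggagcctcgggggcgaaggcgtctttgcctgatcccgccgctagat
Col4a4/Col4a3 (chr1:82586824-82587001): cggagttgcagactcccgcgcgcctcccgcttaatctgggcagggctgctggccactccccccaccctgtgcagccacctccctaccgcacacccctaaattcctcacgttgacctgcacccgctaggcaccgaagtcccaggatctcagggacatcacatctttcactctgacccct
Between Hspd1 and Hspe1, which encode the mitochondrial chaperonin and its co-chaperonin, a GC box and 2 overlapping ETS-type matches stood in 159 printed bases. The stretch between Mrps12, a mitochondrial ribosomal protein, and Sars2, the mitochondrial seryl-tRNA synthetase, held 4 CCAAT boxes. That between Ranbp1 and Trmt2a held a CCAAT box, a GC box and an NRF1-type match. The Col4a4/Col4a3 stretch, between collagen IV chains of basement membranes, held no match to any of the 10 motifs and 9 CpG dinucleotides in 178 bases, against 17 in the 159 bases of Hspd1/Hspe1.

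Almost all of the pairs bore H3K4me3. A promoter was called marked when each replicate's list had a peak no more than 1 kb from a TSS, with the nearest TSSs counted for a pair and all annotated coding TSSs for any other gene. By this measure 1043 of 1105 pairs were marked (94.4%, 95% Wilson interval 92.9 to 95.6%), against 10212 of 18510 coding genes outside the pairs (55.2%, interval 54.5 to 55.9%). A peak near either gene was enough for a pair. Counted by gene, 2079 of 2186 genes in pairs were marked (95.1%), where a peak can count for both genes. The genes outside include 1125 olfactory receptor genes, of which 4 were marked. The intervals cover counting error only. The replicates agreed closely on this point, with 1048 pairs marked in replicate 1 and 1048 in replicate 2, 10 pairs marked in a single replicate and 52 in neither. The pairs took up 1682 of 27845 peaks in replicate 1 (6.04%) and 1655 of 26574 in replicate 2 (6.23%). All 7 microglia markers examined (Cx3cr1, Csf1r, P2ry12, Tmem119, Sall1, Fcrls and Olfml3) were marked in both replicates and none of them lay in a pair. None of 5 markers of monocytes, neutrophils and lymphocytes was marked, with summed tallest peaks of 0 in both replicates. Of the other lists 1 of 4 neuronal, 2 of 4 astrocyte, 2 of 3 autosomal oligodendrocyte, 1 of 3 border macrophage and 2 of 3 endothelial markers were marked, with summed tallest peaks of 28.0, 222, 178, 15.6 and 71.7 in replicate 1 and 8.21, 237, 225, 11.9 and 78.3 in replicate 2, against 1377 and 1427 for microglia. The part of such cells in the marks of the pairs was not tested.

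The tallest peak was also higher at pairs. The height of a promoter is its tallest peak in tags per 10 M mapped tags, with libraries of 12.8 and 13.4 M tags. At a pair this is the tallest peak near the TSSs of 2 genes, at another gene that near its own TSSs. The part of this in the difference was not tested. In replicate 1 the median height was 247.0 at marked pairs (quartiles 203 and 293) and 207 at other marked genes (quartiles 104 and 271). In replicate 2 it was 254 at pairs (quartiles 204 and 308) and 213 at other genes (quartiles 106 and 286). The upper quartiles thus lay close together and the lower quartiles far apart. Heights under 50 were seen at 36 pairs in replicate 1 (3.45%), against 1644 other genes (16.1%), and at 34 pairs in replicate 2 (3.26%), against 1590 other genes (15.6%). The ratio of the medians was 1.20 in replicate 1 and 1.19 in replicate 2. When the peaks of a promoter were added up in place of taking the tallest, the medians were 341 at pairs and 225 at other genes in replicate 1, and 345 and 231 in replicate 2. A sum at a pair likewise takes in the peaks of 2 genes. Single flanks were alike, as summed per promoter at the 677 marked pairs with TSSs 0 to 300 bp apart. They carried 171 and 172 in replicate 1, against 168 downstream at other genes, and 177 and 176 against 175 in replicate 2. The tallest pair reached 486 in replicate 1 and 533 in replicate 2, against up to 1147 at other genes in each replicate. Input tags at the tallest peak had medians of 1.2 in replicate 1 and 1.4 in replicate 2 in both groups of promoters.

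**Figure D1:**
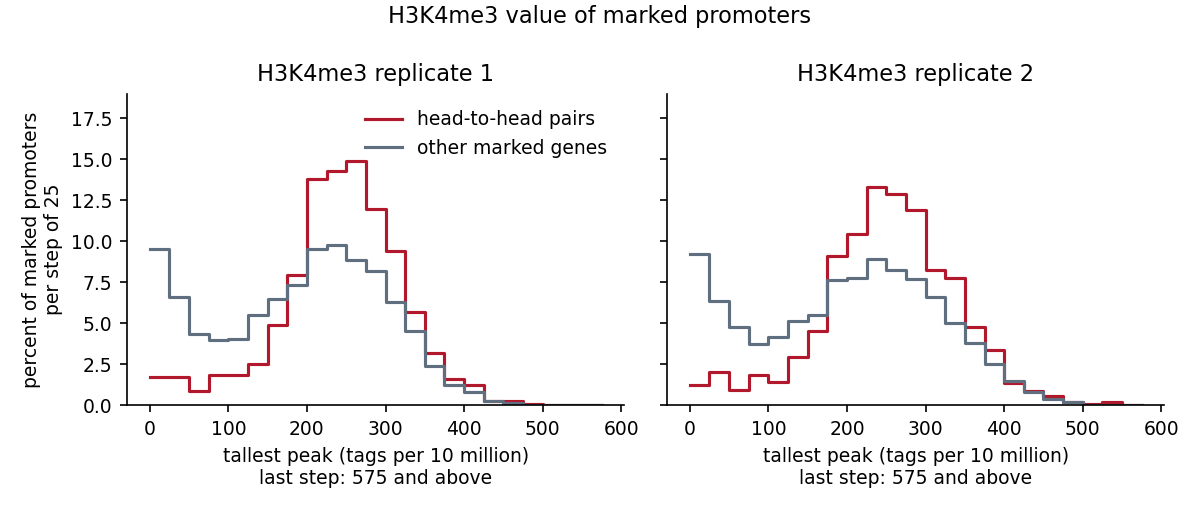
Share of marked promoters (y axis, percent per step of 25) at each H3K4me3 height (x axis, tallest peak in tags per 10 M) in replicates 1 and 2, for 1043 head-to-head pairs in red and 10212 other marked genes in grey. The low heights on the left that 16.1% of other genes show in replicate 1 are rare among pairs, at 3.45%, while both groups crowd around similar heights on the right.

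Pairs also differed from other genes in where their peaks lay. Peaks on both sides of the midpoint between the TSSs were found in both replicates at 502 of 1043 marked pairs (48.1%, 95% Wilson interval 45.1 to 51.2%). Peaks on both sides of 1 main TSS were found at 1838 of 10212 other marked genes (18%, interval 17.3 to 18.8%). At other genes, peaks within 1 kb of any of their TSSs counted, with a mean of 2.09 TSSs per gene. Some counted peaks can thus lie far from the main TSS. The same-side shares, lower over taller sides and quartile shares given below use this split. Around the midpoint of the 677 marked pairs with TSSs 0 to 300 bp apart, the summed peak value rose to a summit on either flank and was nearly empty between them. In steps of 50 bp the summits reached 43.2 on the side of the minus-strand gene and 40.3 on that of the plus-strand gene in replicate 1, and 41.9 and 38.3 in replicate 2. In replicate 1 the flanks within 1 kb carried 171 tags per 10 M per promoter on the side of the minus-strand gene and 172 on that of the plus-strand gene, and the 200 bp around the midpoint carried 5.62. In replicate 2 the values were 177, 176 and 6.43. The minus-strand side over the plus-strand side came to 0.995 in replicate 1 and 1.01 in replicate 2. The sides of pairs follow the strands of the genome, so this ratio over many pairs does not show level sides within a pair. At other marked genes the upstream flank carried 32.2 tags per 10 M in replicate 1 and 31.1 in replicate 2, against 168 and 175 within the gene, so that the upstream side held 0.192 and 0.178 of the downstream side. The summits stood 225 bp to the left and 225 to 275 bp to the right of the midpoint in pairs and 175 bp inside the gene at other promoters.

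**Figure D2:**
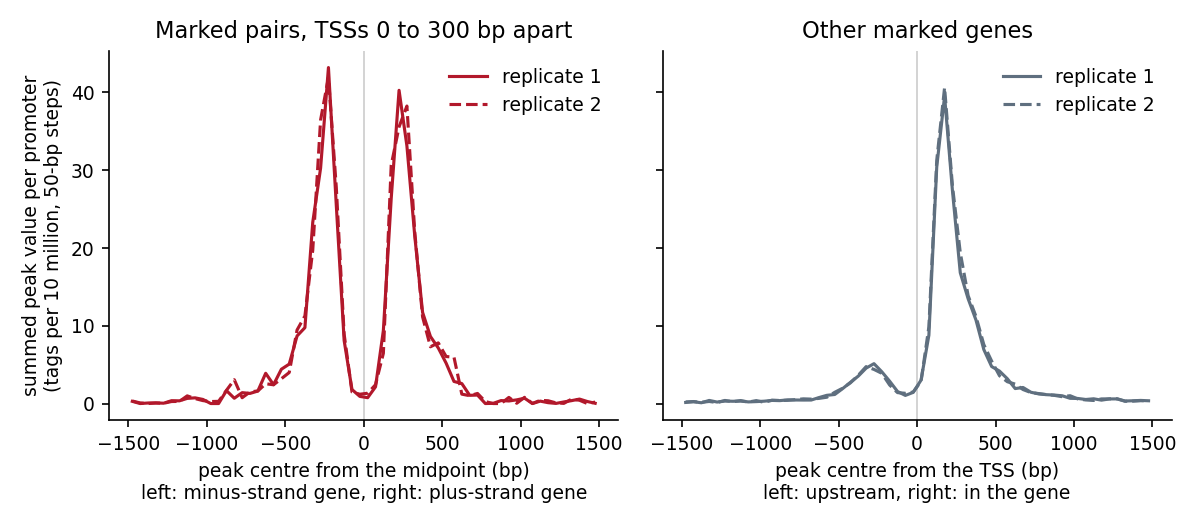
Peak value summed per promoter in steps of 50 bp (y axis, tags per 10 M) against the distance of the peak centre (x axis, bp), for 677 marked pairs with TSSs 0 to 300 bp apart around their midpoint (left, red) and for 10212 other marked genes around 1 TSS, with the gene to the right (right, grey). Solid lines are replicate 1 and dashed lines replicate 2. Summed over pairs, the profile has a summit on each side with a gap between, though many single pairs had no listed peak on one of the sides. Summed over other genes, it has a single tall summit inside the gene and a low one upstream.

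The tallest peak of a pair seldom lay between the genes. The stretch between the TSSs was itself short, with a median of 97 bp over all pairs, overlaps counted as below 0. The part of this shortness in the counts that follow was not tested. Among the 839 marked pairs whose nearest TSSs did not overlap, its centre lay on the side of the minus-strand gene at 401 pairs, between the TSSs at 34 and on the side of the plus-strand gene at 404 in replicate 1, and at 402, 36 and 401 pairs in replicate 2. It stood a median of 192 bp past the nearer TSS in replicate 1 (quartiles 139 and 281 bp) and 189 bp in replicate 2 (quartiles 144 and 273 bp). The tallest peak of other genes stood a median of 185 bp downstream of the main TSS in each replicate. That median covers only the 9637 and 9628 genes whose tallest peak lay close to this TSS. It is signed, with 11.6% of these peaks upstream, while distances at pairs run outward from the nearer TSS. Over all marked pairs the centre of the tallest peak fell in an annotated intron at 414 and 381 pairs (replicates 1 and 2), in a UTR at 328 and 340, in a coding exon at 278 and 296, in an exon of a noncoding transcript at 3 and 2 and outside any gene at 20 and 24. The tallest peak was on the same side in both replicates at 910 of 1043 marked pairs (87.2%), against 9660 of 10212 other marked genes (94.6%). Where both sides had a peak, they were close in height. The lower side reached a median of 0.729 of the taller side in replicate 1 and 0.743 in replicate 2 at pairs, against 0.535 and 0.507 at other genes with peaks on both sides. Which side was taller agreed between replicates at 426 of 502 pairs (84.9%), and 415 of the 502 (82.7%) had sides within 2-fold of each other.

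The distance between the TSSs went with the number of peaks. Both sides had a peak in 133 of 342 marked pairs with TSSs 0 to 100 bp apart (38.9%), in 129 of 226 at 101 to 200 bp (57.1%), in 75 of 109 at 201 to 300 bp (68.8%), in 60 of 82 at 301 to 500 bp (73.2%) and in 44 of 80 at 501 to 1000 bp (55.0%). All peaks had a fixed width of 184 bp in replicate 1 and 188 bp in replicate 2, and the first percentile of the distance between starts of neighbouring peaks was 408 bp in replicate 1 and 415 bp in replicate 2. Summits closer than this are rarely listed as separate peaks, and the part of this spacing in the share of close pairs with a peak on each side was not tested. Height changed little with distance, with medians between 226 and 253 in replicate 1 and between 238 and 268 in replicate 2 over these 5 classes. Tallest peaks between the TSSs were found at 1 and 0 of the 342 closest pairs in replicates 1 and 2, and at 12 of the 80 widest in each replicate (15.0%).

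Pairs with overlapping 5′ ends had their peaks elsewhere. Here the plus-strand gene starts to the left of the minus-strand gene's start, so that DNA downstream of both TSSs is shared. Of 71 marked pairs that overlapped by 301 to 1000 bp, 55 in replicate 1 (77.5%) and 54 in replicate 2 (76.1%) had their tallest peak inside the overlap, and peaks on both sides of the midpoint were found at 10 (14.1%). Their median height was 271 in replicate 1 and 258 in replicate 2. Of 133 marked pairs that overlapped by 1 to 300 bp, 26 and 23 had the tallest peak inside the overlap and 51 (38.3%) had peaks on both sides.

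**Figure D3:**
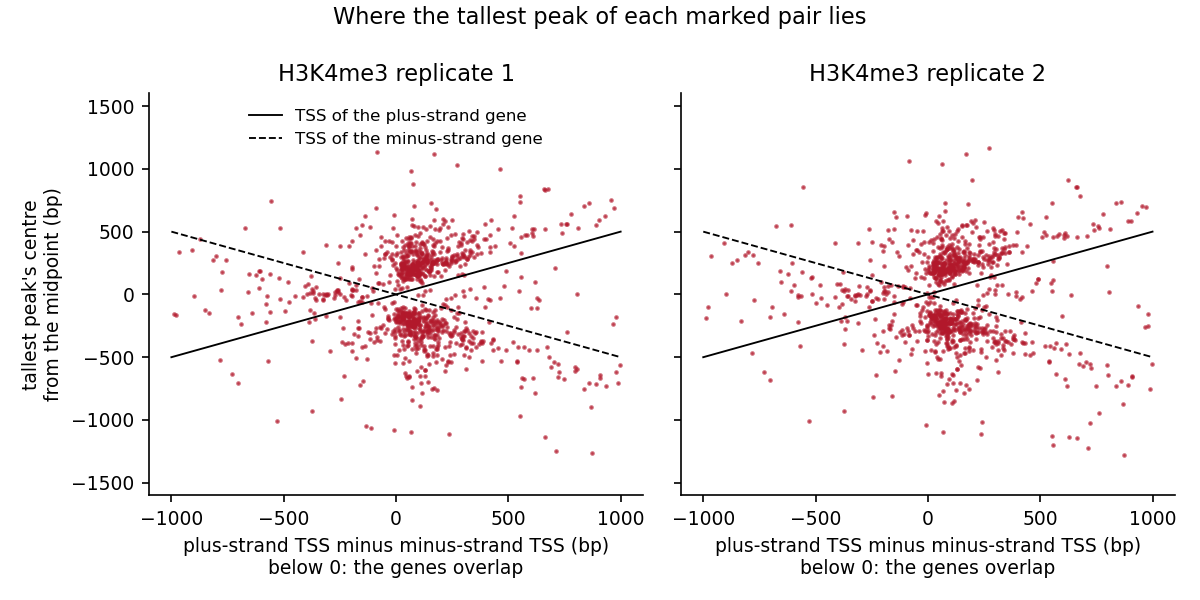
Position of the tallest peak of each of 1043 marked pairs, as its distance from the midpoint of the TSSs (y axis, bp, plus-strand gene upwards) against the signed distance between the TSSs (x axis, bp, below 0 where the genes overlap), in replicates 1 and 2. The solid line is the TSS of the plus-strand gene and the dashed line that of the minus-strand gene. To the right of 0 the wedge between the lines is nearly empty, with 34 and 36 of 839 peaks, and at overlaps of over 300 bp most peaks lie between the lines.

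By the mean of both replicates the 2 tallest pairs belonged to this overlapping class. Gm9970/Nrbp1, a predicted gene and a pseudokinase that overlap by 368 bp, had heights of 467 and 533 in replicates 1 and 2. Wbp4/Elf1, a splicing factor and an ETS transcription factor, had 458 and 525. Their peak centres lay within 40 bp of the midpoint in both replicates. The tallest pair with a peak on each side in both replicates was Dido1/Gid8, whose DNA is printed above. It had 486 and 463 on the side of Gid8, a subunit of the CTLH ubiquitin ligase, and 260 and 283 on the side of Dido1, a chromatin reader. Serpinb6a/Ripk1 had a single peak of 426 and 471, on the side of the protease inhibitor gene Serpinb6a, and none on the side of Ripk1, a kinase of inflammatory cell death. Ccni/2010109A12Rik followed with 391 and 492. Both pairs of Arp2/3 complex genes among the 10 tallest were unequal. Rgl1/Arpc5 had 433 and 442 on the side of Arpc5, against 183 and 191 on that of Rgl1. Tada3/Arpc4 had 407 and 466 on the side of Arpc4, against 171 and 125 on that of Tada3. Arpc4 and Arpc5 encode subunits of the complex that nucleates branched actin. Hnrnpk/Rmi1, with heights of 386 and 485, and Ewsr1/Rhbdd3, with 422 and 448, were taller on the side of the RNA-binding protein gene, Hnrnpk and Ewsr1.

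At the other end, heights at the 5 lowest marked pairs were near the lowest that the lists hold. C530025M09Rik/Syndig1 had 7.01 and 7.46 in replicates 1 and 2, Draxin/Mad2l2 10.9 and 7.46, Kctd19/Lrrc36 10.9 and 11.2, Tk1/Afmid 14.0 and 8.21, and Lrrc74b/P2rx6 11.7 and 15.7. In the first 3 of these pairs the only peak lay on opposite sides of the midpoint in the replicates. The replicates differed less at pairs than elsewhere, with an SD of the log2 ratio of replicate 1 over replicate 2 of 0.22 over pairs and 0.32 over other marked genes, around medians of -0.06 in both. Heights were within 2-fold of each other at 1041 of 1043 pairs (99.8%) and at 10045 of 10212 other genes (98.4%). Low heights were more common at other genes, and their part in this difference was not tested. The widest differences were at B4galnt3/D330020A13Rik (21.8 and 5.97), Gm9955/Fhod3 (12.5 and 25.4), Tk1/Afmid, Zfyve28/Cfap99 (88.8 and 145.5) and Spcs1/Glt8d1 (199 and 325), most of which were low.

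Of 22 long-known divergent pairs that were looked up by name, the rule found 20, and 18 of these were marked. Heights at 17 of the 18 ran from 196 to 311 in replicate 1 and from 186 to 391 in replicate 2, with Tk1/Afmid as the exception. Peaks on both sides in both replicates were found at 10 of the 18. Hspd1/Hspe1, with TSSs 108 bp apart, had 293 and 330 on the side of Hspd1 and 290 and 243 on that of Hspe1. Its sides were level in replicate 1 and unequal in replicate 2. Ranbp1/Trmt2a, a Ran-binding protein and a tRNA methyltransferase 151 bp apart, had 288 and 391 on the side of Ranbp1 against 251 and 223 on the other. Psmb9/Tap1, the immunoproteasome subunit and peptide transporter of antigen presentation, had 283 and 353 on the side of Psmb9 and 238 and 271 on that of Tap1. Sdhd/Timm8b, a subunit of respiratory complex II and a chaperone of mitochondrial import, had 227 and 202 against 220 and 272. Toe1/Mutyh, an RNA deadenylase and a DNA glycosylase that removes adenine mispaired with oxidized guanine, had 214 and 219 against 186 and 223. Mcm4/Prkdc, a replicative helicase subunit and the catalytic subunit of DNA-dependent protein kinase, had 205 and 195 against 184 and 198. Atm/Npat, the kinase of the DNA break response and a regulator of histone genes, had 143 and 151 against 224 and 226. For these pairs the sides were within 2-fold of each other in both replicates.

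The Brca1/Nbr1 promoter was lopsided among the known pairs. It had 29.6 and 41.8 on the side of Brca1, a gene of homologous recombination, against 240.0 and 241 on the side of Nbr1, an autophagy receptor, and the tallest peak stood 1027 and 1167 bp from the midpoint. Ndufs3/Kbtbd4, Ppat/Paics and Sirt3/Psmd13 had peaks on a single side in both replicates, at 311 and 267, 196 and 186, and 229 and 221. Mrps12/Sars2 had a peak of 249 and 290 on the side of Sars2, and a peak on the side of Mrps12 (184) was listed in replicate 1 only. Surf1/Surf2 and Hars/Hars2 likewise had a side listed in replicate 1 only.

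**Figure D4:**
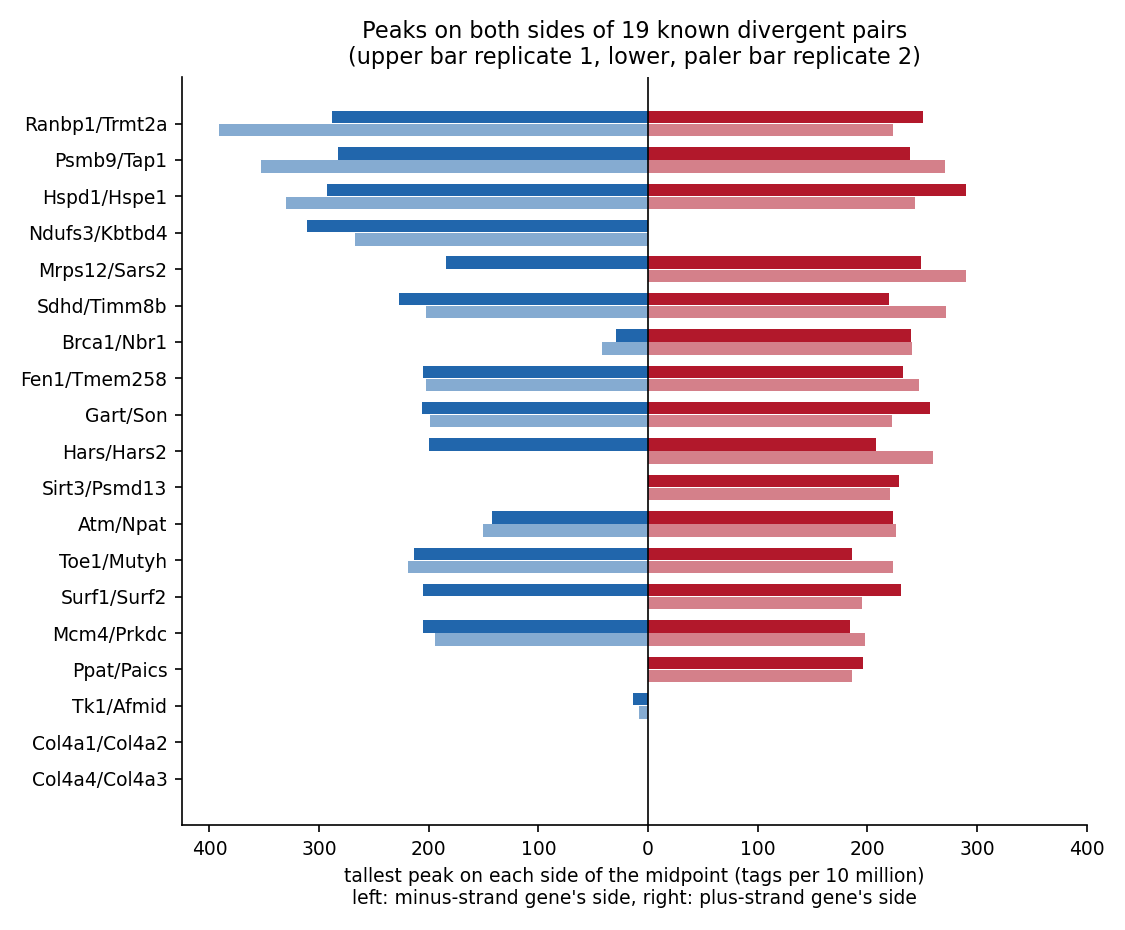
Tallest peak on each side of the midpoint (x axis, tags per 10 M, 0 in the centre) at 19 of the known divergent pairs, with the side of the minus-strand gene to the left and that of the plus-strand gene to the right, and replicate 1 as the upper and replicate 2 as the lower, paler bar of each pair. Bars on both sides in both replicates are seen at 10 pairs, Brca1/Nbr1 leans to the right with 240.0 and 241 against 29.6 and 41.8, and both collagen pairs are empty.

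Outside both replicates' lists were 52 pairs. Both collagen IV pairs, Col4a1/Col4a2 and Col4a4/Col4a3, were among them, as were Abcg5/Abcg8, the sterol transporter of liver and gut, Kirrel2/Nphs1, which holds the nephrin gene of kidney podocytes, Bhmt2/Dmgdh of liver methionine and choline metabolism and Wfdc8/Wfdc6b and Wfdc9/Wfdc10 of the epididymal protease inhibitor cluster. In 16 of the 52 a gene of the pair was marked at another TSS, for example Usp37, Glo1, Dusp3, Ccnt1, Dgcr2 and Bscl2, and in the rest neither gene was marked at any TSS. Of the 62 pairs not marked in both replicates 6 had an interaction (9.68%), and 460 of 8298 other unmarked genes did (5.54%). The rule's limit of 1000 bp cut through marked promoters. Just inside it stood Proser3/Hspb6 (996 bp, 260.2 and 287 in replicates 1 and 2), C2/Zbtb12 (overlap of 988 bp, 144 and 175) and Btf3l4/Txndc12 (987 bp, 309 and 326). Just outside stood Nacc1/Trmt1 (1004 bp, 340 and 398), 5330417C22Rik/1700013F07Rik (1005 bp, no peak) and Ddias/Prcp (1005 bp, 173 and 171).

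Some marked pairs had a listed peak on each side and yet a great difference between the sides. Proser3/Hspb6 had 260.2 and 287 on the side of Proser3 and 5.45 and 11.9 on that of Hspb6, a small heat shock protein of muscle. Cbln3/Khnyn had 8.57 and 7.46 on the side of Cbln3, a cerebellin of granule neurons, and 290 and 250 on that of Khnyn, a KH-domain protein. Tom1l2/Drc3 had 219 and 261 on the side of Tom1l2, an endosomal adaptor, and 11.7 and 8.95 on that of Drc3, a dynein regulator of motile cilia. Tbc1d10b/Mylpf had 269 and 228 on the side of Tbc1d10b, a Rab GTPase-activating protein, and 10.9 and 24.6 on that of Mylpf, a myosin light chain of fast muscle. Sbds/Tyw1 had 203 and 204 on the side of Sbds, a ribosome maturation factor, and 8.57 and 20.1 on that of Tyw1, which modifies tRNA. These 5 pairs were chosen as the most unequal.

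Pairs did not gather more interactions than other promoters. An interaction was counted when an anchor bin held a nearest TSS of the pair, or any TSS of another gene. At least 1 interaction was found at 386 of 1043 marked pairs (37.0%, 95% Wilson interval 34.1 to 40.0%) and at 3861 of 10212 other marked genes (37.8%, interval 36.9 to 38.8%). The mean number was 1.18 per pair and 1.38 per other gene, a ratio of 0.853, and 17 pairs (1.63%) and 263 other genes (2.58%) had 10 or more. The bins searched were not equal, at 1.04 per pair and 1.24 per other gene, since other genes have further TSSs. With a single bin for every promoter the means were 1.13 and 1.25, a ratio of 0.910, and the shares with an interaction were 36.6% and 36.0%. The 1191 interactions of the pairs spanned a median of 130 kb (quartiles 70.0 and 223 kb), with a median of 3.78 for read pairs over expected, against a span of 125 kb and a ratio of 3.91 for the 13115 of other marked genes. Spans of up to 40 kb made up 13.4% of the interactions of pairs, against 16.6% of those of other genes.

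The far ends of these interactions were promoters at a higher share than those of other genes. Counted once for each promoter and interaction, the far bin held an H3K4me3 peak of both replicates in 327 of 1231 contacts of pairs (26.6%) and in 2852 of 14076 of other marked genes (20.3%). It held a coding TSS in 269 contacts of pairs (21.9%) and in 2081 of other genes (14.8%). With 1 bin per promoter the far bin was marked in 27.2% and 19.8% of contacts and held a coding TSS in 22.3% and 14.9%. Contacts of neighbouring bins are not independent, and these differences were not tested. In 15 interactions both bins held a marked pair. The highest ratio among these was between 1810049J17Rik/Golph3 and 6030458C11Rik/Drosha on chromosome 15, 500 kb apart, with 14 read pairs against 1.98 expected. Golph3 encodes a Golgi phosphoprotein and Drosha the nuclease that releases microRNA precursors.

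The share with an interaction was also set against H3K4me3 height. Over quartiles of height set on all marked promoters, from low to high, the share with an interaction was 33.3, 35.4, 37.8 and 38.1% at pairs (75, 243, 376 and 349 pairs), against 27.7, 38.4, 41.0 and 45.2% at other genes. In the top quartile the Wilson intervals met, at 33.2 to 43.3% for pairs and 43.3 to 47.2% for other genes. The difference between the trends was not tested. Mean interactions were 0.973, 1.03, 1.26 and 1.25 per pair and 0.890, 1.36, 1.51 and 1.83 per other gene. Peaks on both sides were more common at pairs in each quartile, at 14.7, 42.4, 52.4 and 54.7%, against 6.43, 17.7, 21.3 and 27.9%.

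**Figure D5:**
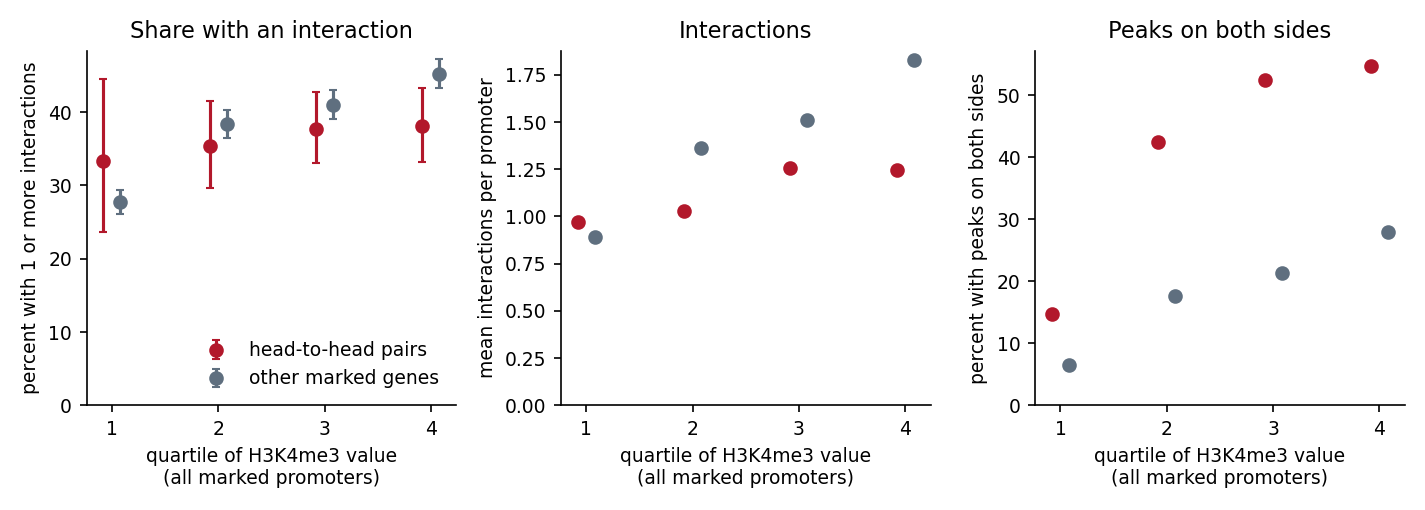
Share of promoters with an interaction (left, percent, bars are 95% Wilson intervals), mean interactions per promoter (middle) and share with peaks on both sides (right, percent), by quartile of H3K4me3 height over all marked promoters (x axis), for head-to-head pairs in red and other marked genes in grey. The share with an interaction runs from 33.3 to 38.1% at pairs and from 27.7 to 45.2% at other genes, from the lowest to the highest quartile, while peaks on both sides are more common at pairs in every quartile.

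Among single pairs Teddm2/Glul had the most, with 35 interactions, all to bins at higher coordinates, 105 to 290 kb away. Glul encodes glutamine synthetase, and the pair overlaps by 264 bp with heights of 297 and 312. Together these interactions held 655 read pairs against 120 expected (5.48-fold). Srgap2/Fam72a had 30, all to bins at lower coordinates, 10 to 240 kb away, with 851 read pairs against 204 expected. Srgap2 encodes a GTPase-activating protein of cell migration, and the taller peak was on its side, at 253 and 271, against 137 and 138 on the side of Fam72a. Zfp277/Dock4 had 19 interactions, 15 of them towards higher coordinates, on the side of Dock4, an activator of Rac, which was also the taller side at 323 and 350 (253 and 263 on the side of Zfp277). Urod/Hectd3 had 18, Mrpl13/Mtbp 15, Tada2b/Ccdc96 13, Tctn3/Entpd1 13, and Atp5f1/Wdr77, Snx5/Mgme1 and Fen1/Tmem258 had 12 each. The counts are not fully comparable. The TSSs of Teddm2/Glul, Urod/Hectd3 and Atp5f1/Wdr77 fell in 2 bins, which were both searched, against 1 bin for the other pairs named here.

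The strongest single interactions were seen at pairs of low and of high H3K4me3. Heights in replicates 1 and 2 were 140.2 and 162 at Galns/Trappc2l, 169 and 133 at Tctn3/Entpd1, 219 and 263 at Ptcd3/Polr1a, 315 and 330 at Atp5f1/Wdr77 and 261 and 279 at Urod/Hectd3, beside medians of 247.0 and 254 over marked pairs. Galns/Trappc2l, a lysosomal sulfatase and a trafficking protein, was joined to a bin 220 kb away (chr8:122610001-122615000 with chr8:122830001-122835000) by 33 read pairs, 12.6 times the expected number and the highest ratio of any pair among interactions with at least 20 read pairs. Tctn3/Entpd1 was joined to chr19:40720001-40725000, 110 kb away, by 51 read pairs against 4.29 expected (11.9-fold). Entpd1 encodes CD39, the ectoenzyme of microglia that hydrolyses extracellular ATP. Its shared promoter had a single peak of 169 and 133 in replicates 1 and 2, on the side of the ciliary gene Tctn3 and none on that of Entpd1 within 1 kb of these TSSs. Ptcd3/Polr1a was joined to chr6:72160001-72165000 by 27 read pairs (11.6-fold). Urod/Hectd3 was joined to chr4:116825001-116830000 by 45 (10.5-fold), from a bin that holds the TSS of Urod and not that of Hectd3. In each of these the far bin held no H3K4me3 peak in either replicate and no coding TSS. Atp5f1/Wdr77 was joined by 43 read pairs (11-fold) to chr3:105685001-105690000, which holds the TSS of Ddx20 and a peak of 245 and 296. The pair's own bin in this interaction holds the TSS of Wdr77 and not that of Atp5f1.

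By function, lists of genes differed in how many of their members lay in pairs. The share of a list's autosomal coding genes that lay in pairs is set beside the 10.6% of all coding genes. It was 41.0% for the mitochondrial ribosome (32 of 78), 40.3% for replication-dependent histones (27 of 67), 36.0% for DNA repair and replication (45 of 125), 32.2% for the respiratory chain (29 of 90), 26.8% for RNA polymerase and Mediator subunits (15 of 56), 26.3% for chaperones (21 of 80), 25.7% for aminoacyl-tRNA synthetases (9 of 35) and 20.8% for the proteasome (10 of 48). It was 16.5% for the cytosolic ribosome, 14.1% for vacuolar protein sorting, 6.79% for Zfp zinc finger genes and 0.0888% for olfactory receptors (1 of 1126). None of 29 homeostatic and none of 21 disease-associated microglia genes lay in a pair, and 14 of 293 genes of the study's list of microglia-specific genes did (4.78%). These shares come from the annotation alone. All 32 mitochondrial ribosome genes in pairs were marked, as were all 46 outside, and the median heights in replicates 1 and 2 were 250.1 and 267 at the pairs and 216 and 222 at the marked genes outside. The 45 pairs of DNA repair and replication had medians of 240.0 and 261 against 212 and 218 outside. The 30 respiratory chain pairs had 264 in each replicate against 243 and 255, and the 10 proteasome pairs had 272 and 281 against 264 and 270. The 19 chaperone pairs had 265 and 284 against 253 and 260.3, and the 22 marked pairs of Zfp genes had 246 and 251 against 199 and 198. Other lists went the other way. Medians were lower at pairs for the cytosolic ribosome (13 pairs, 239 and 219 against 241 and 248), aminoacyl-tRNA synthetases (8 pairs, 241 and 257 against 256 and 267), RNA polymerase and Mediator subunits (16 pairs, 239 and 252 against 246 and 257) and lysosomal genes (5 marked pairs, 182 and 203 against 269 and 251). For vacuolar protein sorting (9 pairs) they were lower in replicate 1, at 245 against 251, and higher in replicate 2, at 287 against 256.

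Among these lists the tallest pairs were as follows. Gga3/Mrps7, with the mitochondrial ribosomal protein on the plus strand, had 358 and 461 on the side of Gga3 and 270 and 283 on that of Mrps7. Psma7/Ss18l1, with a proteasome core subunit, had 419 and 415 on the side of Psma7, 347 and 332 on that of Ss18l1, and 6 interactions. Vps35/Orc6, with a retromer subunit and a subunit of the origin recognition complex, had 424 and 367 on the side of Vps35 and no peak on the other. Atp5j/Gabpa, with a subunit of the ATP synthase and an ETS factor, overlapped by 379 bp and had 370 and 359. Dnajc7/Nkiras2, with a co-chaperone and a regulator of NF-kappaB, had 388 and 375.

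Pairs of histone genes had low peaks. In 13 pairs both genes were replication-dependent histones, mostly an H2A with an H2B gene. Of the 14 pairs with a histone gene 11 were marked, with medians of 107 and 88.0 in replicates 1 and 2, against 80.2 and 70.9 at marked histone genes outside pairs. By gene, 21 of 27 histone genes in pairs were marked, against 39 of 40 outside. Hist2h2ac/Hist2h2be had 208 and 216, a peak also counted for the neighbouring Bola1/Hist2h2ab. Hist1h2ac/Hist1h2bc had 161 and 144, and Hist1h2bf/Hist1h2ad had 19.5 and 19.4. Hist1h2bq/Hist1h2ao, Hist1h2ap/Hist1h2br and Hist1h2ba/Hist1h2aa had no peak. Histone genes are near-identical copies, and reads that fit several of them may have been lost or shared, which was not tested.

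Of microglia-specific genes, 13 pairs held 14, and all 13 pairs were marked, with medians of 200.2 and 180 against 121 and 138 at the marked genes of that list outside pairs. The list was drawn up by the study from expression in microglia against other macrophages, not from these libraries. Klhdc8b/Ccdc71 had 284 and 333, Srgap2/Fam72a 253 and 271, Usp35/Kctd21 250.1 and 264, and Tbc1d16/Ccdc40 255 and 254. The genes of these pairs on the list are Klhdc8b, Fam72a, Usp35 and Tbc1d16. At Srgap2/Fam72a the heights given lay on the side of Srgap2, against 137 and 138 on that of Fam72a. In the 12 pairs with a single such gene, the tallest peak was on that gene's side in 8 in each replicate. Sgce/Peg10, an imprinted pair in which both genes are on the list, had 104 and 99.2 on the side of Sgce and 89.6 and 91.7 on that of Peg10. The 13 pairs had 44 interactions, of which Srgap2/Fam72a alone had 30, leaving 14 over the other 12 pairs. Both TSSs of Srgap2/Fam72a lie in the same bin, so its 30 interactions cannot be assigned to either gene. In the interferon list only Psmb9/Tap1 and Ifit1bl2/Ifit1 were pairs, the second low at 31.9 and 44.0 on the side of Ifit1bl2, with 3 interactions. Among lysosomal genes Atp6v1a/Naa50, with a subunit of the proton pump, had 210 and 259 on the side of Atp6v1a and 337 and 342 on that of Naa50. Npc2/Isca2, with a cholesterol carrier, had 182 and 192 against 134 and 109. Cln3/Apobr had 153 and 172 on the side of Cln3, the gene of juvenile Batten disease, and 40.5 and 37.3 on that of Apobr, a lipoprotein receptor of macrophages.

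Most marked pairs lay in CpG-rich DNA. In the 300 bases centred on the midpoint, marked pairs had a median G+C content of 63.3% and an observed over expected CpG ratio of 0.867 (quartiles 0.735 and 0.980), and in the 300 bases centred on 1 TSS other marked genes had 65.3% and 0.821 (quartiles 0.647 and 0.951). A ratio above 0.6 was found at 924 of 1043 marked pairs (88.6%) and at 8069 of 10212 other marked genes (79.0%). The 62 pairs without the mark in both replicates had a ratio of 0.343 at a G+C content of 54.7%, against a ratio of 0.210 at 8298 other unmarked genes. The windows are not alike. At 709 of all 1105 pairs the nearest TSSs lay 0 to 300 bp apart, so that the window of 300 bases reached the starts of both genes. At 220 pairs the nearest TSSs overlapped, so that the midpoint lay within both genes. The window of another gene is centred on 1 TSS and is covered in part by the gene itself. The part of this in the CpG ratios and motif shares was not tested. ETS-type matches (CCGGAAG) were found in 302 marked pairs (29.0%) and in 16.7% of other marked genes, against 3.23% of the unmarked pairs and 2.55% of other unmarked genes. CCAAT boxes stood in 38.5% of marked pairs and 33.6% of other marked genes, TGACGT in 15.1 and 10.7%, TCTCGCGAG in 2.59 and 1.17%, and YY1-type AAGATGGCG in 53 of 1043 marked pairs (5.08%) and 368 of 10212 other marked genes. At unmarked pairs and other unmarked genes the shares were 40.3 and 37.2% for CCAAT boxes and 8.06 and 3.77% for TGACGT. They were 3.23 and 0.0603% for TCTCGCGAG and 0 and 0.169% for AAGATGGCG. NRF1-type GCATGCGC stood in 5.94% of marked pairs and 4.93% of other marked genes, against 3.23% of unmarked pairs and 0.795% of other unmarked genes. Shares in marked pairs and other marked genes were closer for GC boxes (68.1 and 69.2%), TATAAA (4.31 and 4.80%), CACGTG (9.97 and 9.45%) and PU.1-type GAGGAAGT (2.68 and 2.73%). Each motif was searched on both strands. The motifs of ETS factors and of PU.1 share a core, and CCGGAAG can overlap its own reverse complement, as it does between Hspd1 and Hspe1. A match is a description of the letters and not a bound site.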

How the data were processed

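H3K4me3 ChIP-seq and PLAC-seq of wild-type microglia had 2 libraries each. Input libraries entered only through the authors' peak lists, and Hi-C was not used here. The submitters' processing notes name Bowtie2, HOMER and mm10. Each ChIP library had its own list, with a deposited signal of tags per 10 M mapped tags, a tag count, the input signal, a fold over input (lowest 4.09 and 4), a p-value, a focus ratio (a fraction) and a peak score (not used). The authors called PLAC-seq interactions with MAPS on both libraries together, between 5-kb bins, and deposited the count of read pairs, the expected count and a false discovery rate (an adjusted p-value). Totals were not given in the sources used here, so its depth is unknown. ChIP depth was recovered as tag count over signal. Genes and TSSs came from GENCODE M21 basic, on the build of the files, and sequences from RefSeq's GRCm38. Genes with the same symbol and strand were joined. The H3K4me3 value was the tallest peak within 1 kb.

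No test was run across promoters, which are not replicates, and 1 genotype gives no contrast between samples. Shares carry Wilson intervals. The search for pairs was tested on simulated annotations. The members and lists were chosen with earlier results of these data known. Named pairs were the 10 tallest, 5 lowest, 10 with most interactions, 5 strongest interactions with at least 20 read pairs, known pairs, 3 on each side of the limit, 5 with the widest replicate ratio, 5 with the most unequal sides and the tallest of each list. A few named items are not reported here. Python 3.11.15, pandas 2.3.3, scipy 1.17.1 and samtools 1.23.1 were used.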

Additional observations from a re-analysis of the deposited data

How the results depend on the processing

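The number of pairs was 970 with TSSs within 500 bp, 958 from CCDS transcripts alone and 752 without overlap of outermost TSSs. Pairs stayed above other promoters in the share marked, in height and in peaks on both sides under every alternative run. The share marked was 95.9% with CCDS transcripts. The log2 ratio of H3K4me3 height over other promoters, 0.26 with an SD of 0.0028 over replicates, was 0.25 within 500 bp, 0.24 with CCDS transcripts, 0.22 without overlap of outermost TSSs, 0.24 with peaks within 500 bp, 0.23 with at least 10-fold over input, 0.23 with windows of equal width, 0.28 against genes without an opposite-strand TSS and 0.59 for summed peaks. It was 0.27 to 0.29 when replicate 1 or 2 was left out and promoters were called marked by the other list alone. On promoters marked in both replicates it was 0.26 in replicate 1 and 0.25 in replicate 2. Peaks on both sides were found at 55.7% of pairs without overlap of outermost TSSs and at 44.3% with peaks within 500 bp. They were found at 52.7 to 54.5% when a replicate was left out, so that peaks in the other list alone sufficed. The share with an interaction was 23.1% with the false discovery rate held to 0.0001, 20.2% with at least 20 read pairs and 24.5% with 1 interaction per cluster, against 24.8, 23.4 and 24.8% of other genes. The log2 ratio of mean interactions, -0.23, was -0.14 with 1 bin per promoter, -0.31 at the stricter false discovery rate and -0.14 with 1 interaction per cluster. Alternatives chosen after seeing the data gave a log2 height ratio of 0.27 without predicted or clone-named genes and 0.24 without overlapping nearest TSSs, and peaks on both sides at 52.6% without such overlap. Why the values moved was not tested. No paired analysis was possible because all samples used here are of 1 genotype and no result comes from a test. Peaks of a fixed width limit which neighbouring summits are listed. At the 1062 pairs with both TSSs in 1 bin, bins of 5 kb cannot tell the genes of a pair apart.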

Other observations

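Pairs were spread over all 19 autosomes. Chromosome 11 held the most, with 103 pairs, and chromosome 18 the fewest, with 20. Genes in pairs made up 15.3% of the coding genes of chromosome 12 and 5.98% of those of chromosome 6, counting 2 genes for each pair. A predicted or clone-named gene was part of 137 of the 1105 pairs. The TSSs of 43 pairs fell in different 5-kb bins. The focus ratio of the tallest peak, the authors' measure of how concentrated its tags were, had medians of 0.678 and 0.688 at pairs in replicates 1 and 2 and 0.681 and 0.688 at other marked genes.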
